A study of Mus musculus with 4 samples.

Results

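Voltage-gated sodium and calcium channels set how a neuron fires and releases transmitter, and 30 genes that encode their subunits were described here among 25044 entries measured by RNA sequencing of the parasubthalamic nucleus, a small brain region, in naive mice of the C57BL/6 strain. The members were taken by name: 8 sodium channel α subunits, 3 sodium channel β subunits, the leak channel gene Nalcn, 10 calcium channel α1 subunits, 4 calcium channel β subunits and 4 α2δ subunits. All 30 were found through their Ensembl identifiers. The 4 libraries, replicates 1 to 4, form a single group of untreated mice of this inbred strain. No stressed animals were sequenced, and the labels give no age. The comparisons are therefore between genes within a library and between the libraries. No label says that each library came from a separate animal, so a p-value speaks only to how these 4 libraries vary.

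A sodium or calcium channel is built around a large pore-forming subunit, called α in sodium channels and α1 in calcium channels, which senses voltage and conducts the ion. Smaller β and α2δ subunits bring the pore to the membrane and tune its gating. Sodium channels start and carry the action potential, calcium channels of the P/Q and N types trigger transmitter release, T-type channels open near rest and support burst firing, L-type channels couple activity to calcium signals in the cell body, and NALCN passes a steady sodium leak that brings neurons closer to threshold. The parasubthalamic nucleus, next to the subthalamic nucleus in the caudal hypothalamus, holds many glutamatergic neurons. The series concerns the activity of these neurons after stress and the peptide PACAP with its receptor PAC1R. The libraries show which channel genes the tissue pieces from untreated mice expressed, and these pieces may include cells of neighbouring regions.

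Values are read as FPKM, fragments per kilobase of transcript scaled to the library's total, although no label or header names the unit. The tissue pieces were not alike. All 5 neuronal markers lay above the library median, and markers of other brain regions differed between libraries. The 6 thalamic relay markers summed to 328 FPKM in replicate 3, against 19.1 to 57.2 FPKM in the other libraries. The 5 markers of the medial hypothalamus and pituitary summed to 178 FPKM in replicate 2, against 8.84 to 27.5 FPKM elsewhere, and the 6 midbrain dopamine markers to 689 FPKM there, against 313 to 350 FPKM. The 4 lateral hypothalamic markers ranged from 173 FPKM in replicate 3 to 760 FPKM in replicate 4. In replicate 1 the hindbrain and spinal genes Hoxb8, Hoxa7 and Hoxc6 were at 4.81, 3.80 and 3.06 FPKM, and they were listed at 0 in the other libraries. In bulk tissue fewer cells of a type and less RNA per cell cannot be told apart, and the level of a channel gene does not show which cells held it.

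Most of the channel genes were expressed above the typical gene of this tissue. Of the 30 members, 23 were at 1 FPKM or more in every library and 13 were at 10 FPKM or more in every library, while 5 stayed under 1 FPKM throughout. Each gene was set against the library median, which is the middle level of the 17630 genes averaging at least 0.1 FPKM and lay between 4.70 and 5.01 FPKM. Of the 27 members with such a mean, 17 were higher than the median in limma (adjusted p under 0.05), against 46.7% of all genes tested, and 8 were lower, against 46.4% of all genes tested. Their median level stood at percentile 67.3 of the genes tested, and the other 2, Cacna1e and Cacna1i, did not pass. The 17 comprised Scn1a, Scn2a, Scn8a, Nalcn, all 3 sodium β subunits, all 4 calcium β subunits, the first 3 α2δ subunits, and Cacna1a, Cacna1b and Cacna1g. Cacna1g no longer passed without replicate 4, at a log2 difference of 0.62 (limma, adjusted p = 0.0731). The direction of the genes near the median depends on which genes define it: among genes averaging at least 1 FPKM, Cacna1a was at -0.27, Cacna1b at -0.42 and Cacna1g at -0.29. There Cacna1a and Cacna1b passed as lower (limma, adjusted p = 0.0183 and 0.00208) and Cacna1g did not pass (adjusted p = 0.147). Cacna1i at -1.03 and Cacna1e at -1.87 also passed as lower there (limma, adjusted p = 2.1e-05 and 0.0351). With no filter Cacna1i passed as higher, at 0.51 (limma, adjusted p = 0.00188). Without length correction 21 members were higher and 5 were lower. In summed FPKM, a scale corrected for length, the auxiliary subunits exceeded the pores. The 3 sodium β genes summed to 102 ± 4.13 FPKM (SD, n = 4), against 57.2 ± 2.52 FPKM for the 8 sodium α genes. The 4 calcium β genes summed to 75.5 ± 1.70 FPKM and the 4 α2δ genes to 54.6 ± 4.14 FPKM, against 37.99 ± 4.14 FPKM for the 10 calcium α1 genes. This order did not hold gene by gene: Scn1a averaged 24.8 FPKM, close to Scn3b at 25.1 FPKM, and Cacna2d4 averaged 0.603 FPKM. The pore transcripts are mostly longer, such as 11436 bases in Scn8a against 4656 in Scn2b. The sums were not compared without length correction.

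**Figure D1:**
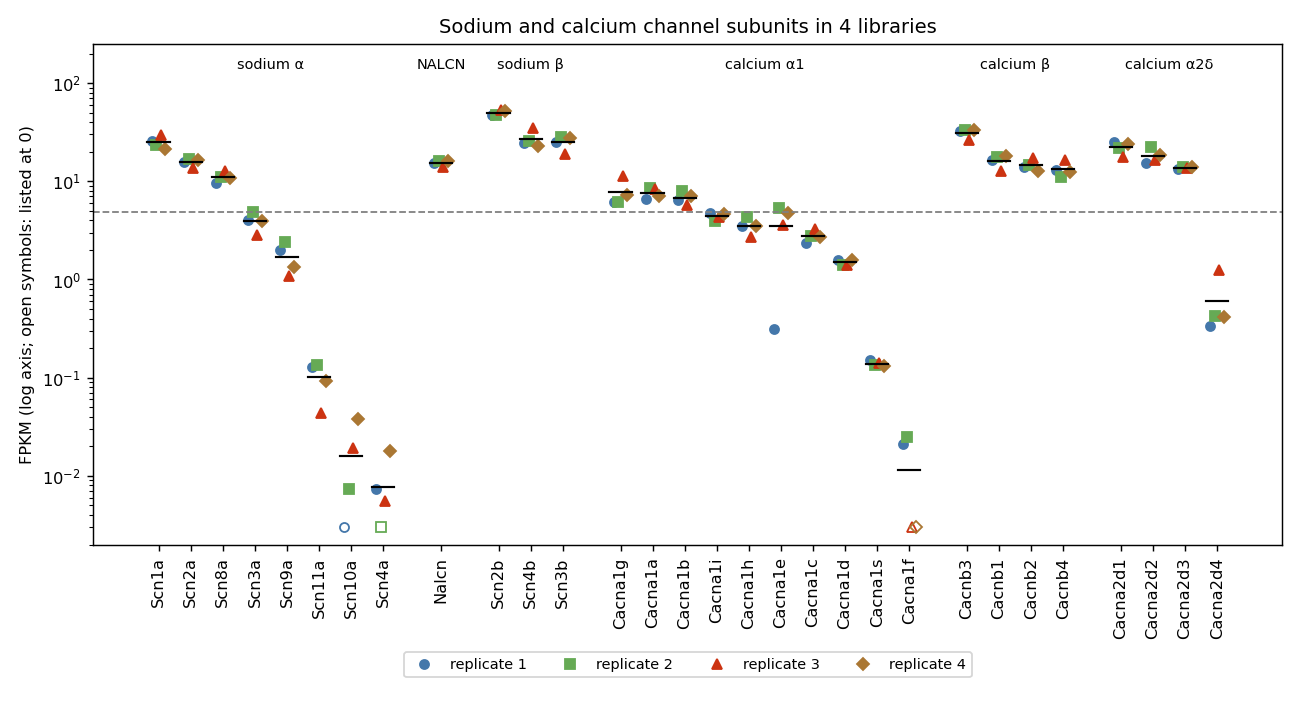
Level of each of the 30 subunit genes in FPKM (log axis), grouped by family and ordered by mean level; each symbol is a library, the bar is the mean of the 4 libraries and open symbols mark genes listed at 0. The dashed line is the mean of the library medians; Scn2b, between 47.2 and 53.5 FPKM, is the highest member, and Cacna1e in replicate 1 lies far below its other libraries.

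Among the sodium channel pores, Scn1a was the most abundant in all 4 libraries, followed by Scn2a and Scn8a. Scn1a, which supports fast firing and is prominent in inhibitory neurons, was at 25.8, 23.2, 29.3 and 21.1 FPKM in replicates 1 to 4. Scn2a, a channel of unmyelinated axons and of the axon initial segment, was at 15.7, 16.7, 13.6 and 16.3 FPKM. Scn8a, the main channel of mature initial segments and nodes of Ranvier, was at 9.57, 11.1, 12.6 and 10.9 FPKM. The ranges of these 3 genes did not overlap. Scn3a, the subunit best known from embryonic and newborn brain, was at 4.0, 4.87, 2.85 and 3.97 FPKM and lay below Scn8a in every library. Scn9a, known from pain-sensing neurons and also present in the hypothalamus, was at 2.0, 2.398, 1.07 and 1.33 FPKM. As shares of the summed sodium α FPKM, Scn1a took 43.3% ± 4.72 (SD, n = 4), Scn2a 27.3% ± 3.16, Scn8a 19.3% ± 1.95, Scn3a 6.88% ± 1.498 and Scn9a 2.97% ± 1.03.

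Every gene was compared with Scn8a within libraries by limma, on log2(FPKM + 0.1). The added 0.1 makes differences that involve low genes look smaller than they are. Of the 6 other members tested, 3 were higher than Scn8a, against 27.7% of all genes tested, and 3 were lower, against 61.8% of all genes tested. Scn1a was 2.23-fold higher, at 1.15 on the log2 scale (SE 0.12, adjusted p = 0.000431), and led in 4 of 4 libraries. Scn2a was higher by 0.49 (SE 0.13, adjusted p = 0.0186) and Nalcn by 0.48 (SE 0.13, adjusted p = 0.0172), also in 4 of 4 libraries. These smaller differences did not pass without replicate 1, 2 or 4, where Scn2a lay between 0.42 and 0.47 and Nalcn between 0.41 and 0.46, so that 1 gene was left as higher. Without length correction Scn2a was at 0.14 and Nalcn at -0.20, and neither passed. Scn3a was lower at -1.49 (SE 0.19, adjusted p = 0.00111) and Scn9a at -2.69 (SE 0.26, adjusted p = 0.000386). The call of Scn3a below the library median was marginal at -0.33 (limma, adjusted p = 0.0464). It did not pass with upper quartile scaling, at -0.32, with 0.01 added in place of 0.1, at -0.34, or without replicate 1, 3 or 4, at -0.34, -0.21 and -0.34. Without length correction or without a filter it lay above the median, at 0.65 and 0.32.

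The sodium channel genes of muscle and of peripheral sensory neurons were close to the floor. Scn4a, the pore of skeletal muscle, was at 0.00728, 0.00552 and 0.0181 FPKM in replicates 1, 3 and 4 and listed at 0 in replicate 2. Scn10a and Scn11a are known from dorsal root ganglion neurons. Scn10a was listed at 0 in replicate 1 and lay at 0.00737, 0.0193 and 0.0379 FPKM in the others, and Scn11a was between 0.0438 and 0.136 FPKM. Scn4a and Scn10a fell below the filter on low values, and Scn11a passed it narrowly with a mean of 0.101 FPKM. The 5 skeletal muscle markers summed to 2.69 to 3.27 FPKM, mostly from Acta1 and Mylpf, and none of the 5 was at 0. The 5 primary sensory neuron markers summed to 13.8 to 25.7 FPKM, nearly all from Prph and Calca, which brain neurons also express. In limma Prph and Calca were above the library median and the other 3, among them Trpv1, were below it, with Trpv1 between 0.1005 and 0.310 FPKM.

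Scn1a, Scn2a, Scn3a and Scn9a lie close together on chromosome 2 of GRCm38 in the GENCODE M21 annotation: Scn3a at 65457118 to 65567627, Scn2a at 65620771 to 65767447, Scn1a at 66270778 to 66440840 and Scn9a at 66480080 to 66634962. Their transcripts are alike in places. Of all 75-base stretches of the longest annotated transcript, 2.59% in Scn1a, 3.81% in Scn2a, 5.08% in Scn3a and 3.57% in Scn9a also occur in a transcript of another gene, so a small part of their reads may have been split between genes. Scn10a shared 0.589%, and the other 25 members shared none. Scn8a lies apart on chromosome 15, from 100869858 to 101045938.

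The bases just before the transcription start are shown for 3 members. They were taken from 7 members that have a single start in the RefSeq promoter table of GRCm38.p6 and are at 1 FPKM or more in every library. The window of each of the 7 reached at most a few bases into the gene as GENCODE M21 places it. Of these 7, the 3 shown moved furthest in replicate 3, in which Scn1a was highest and Scn9a and Cacna2d1 were lowest. Some members outside the 7, such as Cacna1g at 0.84 log2 units, moved further. The windows are chr2:66440841-66441087 on the minus strand for Scn1a, chr2:66634963-66635212 on the minus strand for Scn9a and chr5:15934441-15934690 on the plus strand for the α2δ gene Cacna2d1. Each is written 5′ to 3′ along the gene's strand with CG dinucleotides in capitals.
Scn1a: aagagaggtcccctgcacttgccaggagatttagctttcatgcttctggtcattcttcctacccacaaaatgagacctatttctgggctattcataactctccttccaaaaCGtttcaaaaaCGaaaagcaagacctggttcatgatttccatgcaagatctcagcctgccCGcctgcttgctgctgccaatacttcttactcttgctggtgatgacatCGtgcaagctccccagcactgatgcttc
Scn9a: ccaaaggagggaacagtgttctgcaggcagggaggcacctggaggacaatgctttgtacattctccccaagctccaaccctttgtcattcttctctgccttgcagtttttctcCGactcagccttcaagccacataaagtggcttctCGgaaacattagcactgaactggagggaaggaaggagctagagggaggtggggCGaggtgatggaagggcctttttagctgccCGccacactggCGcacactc
Cacna2d1: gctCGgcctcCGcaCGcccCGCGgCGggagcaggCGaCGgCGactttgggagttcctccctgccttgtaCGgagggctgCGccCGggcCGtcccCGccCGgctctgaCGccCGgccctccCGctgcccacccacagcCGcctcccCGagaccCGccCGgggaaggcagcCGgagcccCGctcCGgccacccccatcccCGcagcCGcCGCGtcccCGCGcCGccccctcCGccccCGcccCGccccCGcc
The Scn1a window of 247 bases holds 4 CG dinucleotides and the Scn9a window of 250 bases holds 5, against 36 in the Cacna2d1 window. The median is 8.5 over 34 windows of 24 members and 6 over all 32851 windows of the table, of which 92.1% hold at least 1. The GC box GGGCGG, searched on both strands and overlapping CG dinucleotides, occurs 6 times before Cacna2d1 and not in the other windows shown. It is present in 12 of 34 member windows, or 35.3%, against 32.7% of all windows. The TATA box TATAAA, searched on both strands, matches none of the windows shown and is held by 12.4% of all windows. The nuclear receptor motif AGGTCA matches none of them either, on either strand, and is held by 14.02% of all windows. The same is true of the TCF/LEF core CTTTGA, held by 13.8% of all windows.

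Nalcn, the pore of the sodium leak channel, was among the steadiest members, at 15.5, 16.2, 13.8 and 16.1 FPKM, a level close to that of Scn2a. Its SD over libraries of 0.07 log2 units stood at percentile 14.1 of the genes tested. Its partners, from a list chosen with earlier results known, were present too. Fam155a, whose product is part of the channel complex, was at 26.2 ± 1.18 FPKM (SD, n = 4), and Unc80, a scaffold of the complex, at 16.0 ± 0.620 FPKM. Unc79, the other scaffold, was at 3.94 ± 0.149 FPKM. Of these 3 genes, 2 lay above the library median and Unc79 lay below it, at -0.30 (limma, SE 0.05, adjusted p = 0.00268), against 46.7% of all genes tested called higher and 46.4% called lower.

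The sodium channel β subunits are single-pass membrane proteins that modulate the pore and act in cell adhesion. Scn2b, which is linked to the pore by a disulfide bond, was the highest of all 30 members at 47.4, 47.2, 53.5 and 52.3 FPKM. Scn4b, which supports the resurgent current of fast-firing neurons, was at 24.6, 25.8, 34.7 and 23.1 FPKM. Scn3b was at 25.3, 28.4, 19.0 and 27.7 FPKM. Both were lower than Scn2b in limma, against 90.3% of all genes tested, and 0 were higher, also at an unadjusted p under 0.05, against 6.58% of all genes tested. Scn4b was 1.87-fold lower, at -0.90 (SE 0.11, adjusted p = 0.000743), and Scn3b was 2.01-fold lower at -1.01 (SE 0.15, adjusted p = 0.00154). The order of Scn4b and Scn3b depended on the library. Scn4b exceeded Scn3b in replicate 3 alone, so its higher mean of 27.1 ± 5.22 FPKM, against 25.1 ± 4.27 FPKM for Scn3b (SD, n = 4), rests on that library. Without it Scn4b averaged 24.5 FPKM and Scn3b 27.1 FPKM.

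**Figure D2:**
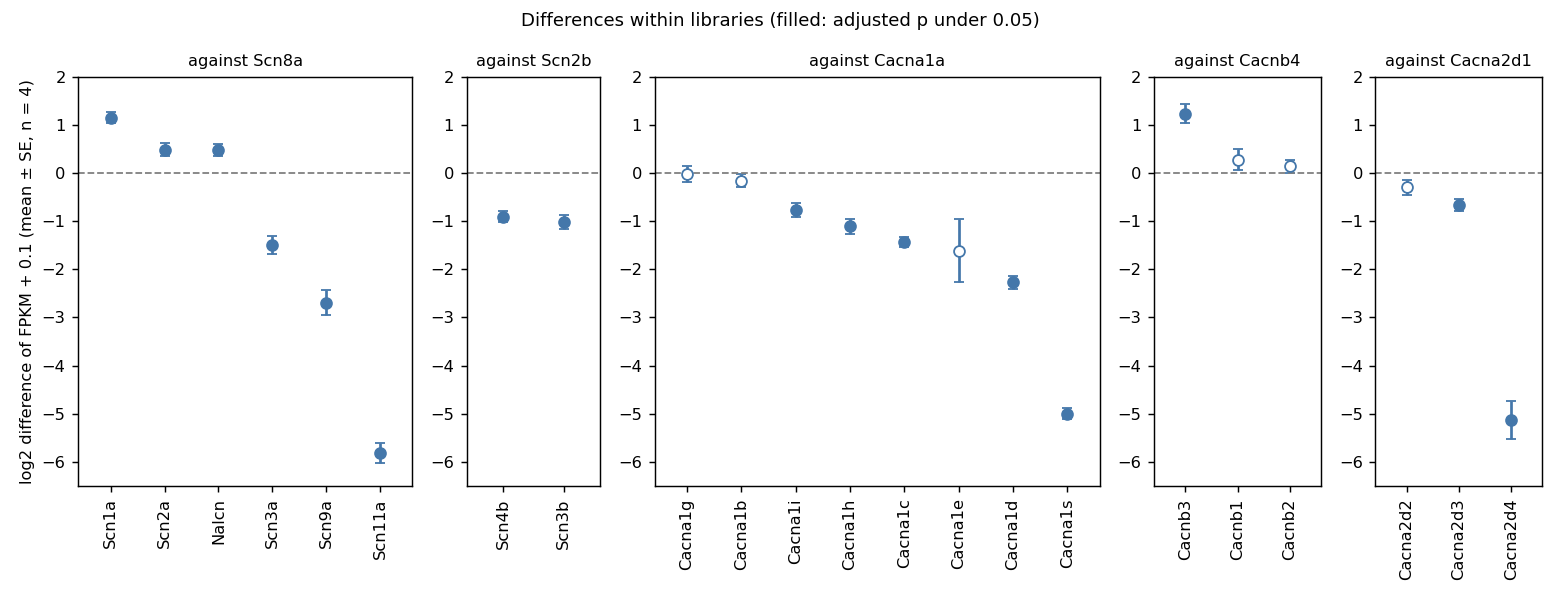
Mean log2 difference of each member to the named gene of its family within libraries, on the log2(FPKM + 0.1) scale, with SE from limma (n = 4 libraries); filled symbols passed at an adjusted p under 0.05. Scn1a at 1.15 above Scn8a and Cacnb3 at 1.24 above Cacnb4 are the largest differences above the line, while Cacna1e has the widest error, 0.66. Without length correction Scn1a stayed higher at 0.71, and Cacnb3 was at -0.34 and did not pass.

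Genes that anchor sodium channels or shape their gating were well expressed. Of 9 sodium channel partners, 9 lay above the library median in limma, against the 46.7% of all genes given above. Fgf13, an intracellular factor that binds the channel's tail, was at 67.7 ± 2.399 FPKM (SD, n = 4), and Fgf12 of the same family at 37.5 ± 3.58 FPKM. Ank2, an ankyrin of the axon shaft, was at 63.7 ± 3.59 FPKM, against 24.8 ± 3.52 FPKM for Scn1a.

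Among the calcium channel pores, 3 genes shared the highest levels. Cacna1g, a T-type pore known for burst firing of thalamic relay cells, was at 6.18, 6.10, 11.2 and 7.31 FPKM in replicates 1 to 4. Cacna1a, the P/Q-type pore that drives fast transmitter release, was at 6.53, 8.46, 8.29 and 7.14 FPKM. Cacna1b, the N-type pore of many peptide-releasing and other terminals, was at 6.51, 7.90, 5.80 and 7.13 FPKM. Their ranges overlapped. Cacna1a exceeded Cacna1b in all 4 libraries but by little, at 6.53 against 6.51 FPKM in replicate 1.

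The remaining pores were lower. Cacna1i, the T-type pore of reticular thalamic neurons, was at 4.72, 3.90, 4.35 and 4.69 FPKM, and Cacna1h, the third T-type pore, at 3.54, 4.30, 2.73 and 3.52 FPKM. Of the L-type pores, Cacna1c was at 2.35, 2.74, 3.27 and 2.68 FPKM and Cacna1d, which opens at more negative voltages and supports pacemaking, at 1.58, 1.41, 1.42 and 1.59 FPKM. Cacna1c was above Cacna1d in all 4 libraries and their ranges did not overlap. Cacna1s, the pore of skeletal muscle, was between 0.130 and 0.153 FPKM. Its exons overlap those of the antisense gene Gm37759 over 1309 bases. Those of Cacna1d overlap Chdh over 589 bases, of Cacna1a Gm16183 over 435 bases and of Cacna1h Tpsg1 over 158 bases, all on the opposite strand. Since the use of strand is not given in the sources used here, reads of the 2 genes of each pair cannot be told apart. Cacna1f, the pore of photoreceptor terminals, was at 0.0212 and 0.0248 FPKM in replicates 1 and 2 and listed at 0 in replicates 3 and 4. The 5 photoreceptor markers summed to 0.291 to 0.381 FPKM, and Crx was at 0 in every library.

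Compared with Cacna1a in limma, 5 of the 8 other members tested were lower, against 53.4% of all genes tested, and 3 did not pass. None was higher in limma (0 of 8, and 0 at an unadjusted p under 0.05), against 35.5% of all genes tested. The 5 were Cacna1i at -0.77 (SE 0.14, adjusted p = 0.00511), Cacna1h at -1.10 (SE 0.15, adjusted p = 0.00165), Cacna1c at -1.43 (SE 0.10, adjusted p = 0.000118), Cacna1d at -2.26 (SE 0.13, adjusted p = 7.85e-05) and Cacna1s at -5.00 (SE 0.12, adjusted p = 1.96e-05). Each was lower in 4 of 4 libraries. Cacna1b was at -0.15 (SE 0.13, adjusted p = 0.305) and Cacna1g at -0.02 (SE 0.17, adjusted p = 0.914), higher than Cacna1a in 2 of 4 libraries. Without replicate 3 the difference of Cacna1g was -0.17 (limma, adjusted p = 0.369).

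Cacna1e, the R-type pore found in cell bodies, dendrites and some terminals, varied most. It was at 0.312 FPKM in replicate 1 and at 5.35, 3.59 and 4.73 FPKM in replicates 2 to 4, which makes the highest value 17.1-fold the lowest. Replicate 1 alone was low. The SD over libraries of 1.76 log2 units stood at percentile 99.6 of the genes tested. Against Cacna1a it did not pass at -1.61 (limma, SE 0.66, adjusted p = 0.0705), though it lay below in 4 of 4 libraries. It passed without replicate 1 at -0.81 (adjusted p = 0.0167), with a pseudocount of 1 at -1.16 (adjusted p = 0.0168), and with limma's prior left without a limit (adjusted p = 0.0247). Replicate 1 is the library with the Hox genes. The neuronal markers summed to 1864 FPKM in it, of which Snap25 held 1146 FPKM. That sum lay within the range of the other libraries, 1786 to 1983 FPKM. The oligodendrocyte markers summed to 5355 FPKM in replicate 1, against 6214 to 7793 FPKM in the other libraries. Whether the low Cacna1e came from the tissue piece or from how the gene was quantified was not tested.

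By class, the P/Q-, N- and R-type pores together took 47.0% ± 5.47 (SD, n = 4) of the summed α1 FPKM, the T-type pores 41.4% ± 4.63 and the L-type pores 11.7% ± 0.924. The first of these shares was lowest in replicate 1 at 41.9%, where Cacna1e took 0.978% of the sum, against 8.80% to 13.3% in the other libraries. Within the T-type class Cacna1g took 61.3% in replicate 3, against 42.6% to 47.1% elsewhere. Per length, T-type transcripts exceeded those of the P/Q-, N- and R-type pores in replicates 1 and 3, at 45.3% against 41.9% and 44.8% against 43.3%. Without length correction the T-type share was 37.6% ± 5.33, against 48.2% ± 6.79 for the P/Q-, N- and R-type pores (SD, n = 4), and in replicate 3 it was 40.5% against 44.8%.

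**Figure D3:**
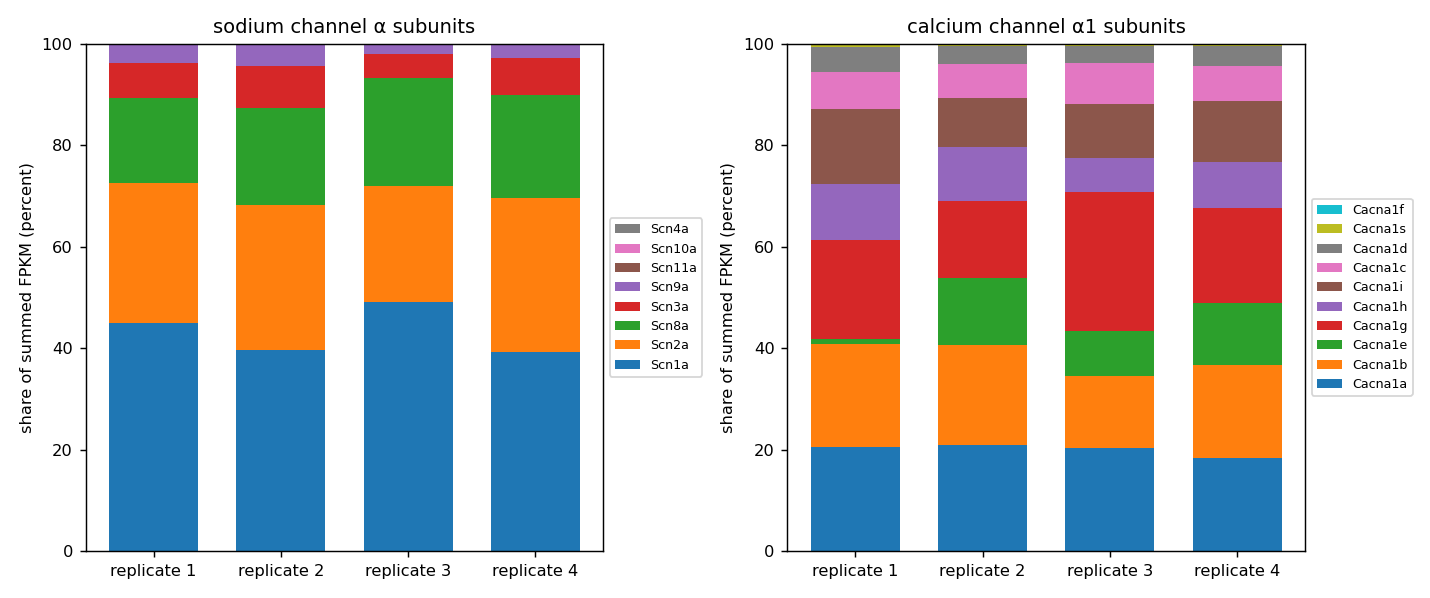
Share of each pore gene in the summed FPKM of its family (percent) in each library, for the 8 sodium channel α genes and the 10 calcium channel α1 genes. Scn1a forms the largest sodium share in every library, between 39.2% and 49.2%, and the Cacna1e segment shrinks to 0.978% in replicate 1.

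The calcium channel β subunits bind the pore inside the cell and carry it to the membrane. Cacnb3 was the most abundant at 32.3, 33.1, 26.4 and 33.6 FPKM and took 41.5% ± 3.58 (SD, n = 4) of the summed β FPKM. Cacnb1, which is also the muscle β subunit, was at 16.5, 17.7, 12.7 and 17.9 FPKM. Cacnb2, known also from heart, was at 14.03, 14.5, 17.3 and 12.7 FPKM. Cacnb4, whose loss causes ataxia and seizures in the lethargic mouse, was at 13.1, 10.965, 16.6 and 12.6 FPKM. The ranges of these 3 overlapped, and that of Cacnb3 lay above all of them. In limma Cacnb3 was 2.36-fold higher than Cacnb4, at 1.24 (SE 0.20, adjusted p = 0.00328), in 4 of 4 libraries. It was the only β subunit called higher, against 21.8% of all genes tested, and 0 were lower, also at an unadjusted p under 0.05, against 63.5% of all genes tested. Cacnb1 was at 0.28 (SE 0.23, adjusted p = 0.286) and Cacnb2 at 0.14 (SE 0.14, adjusted p = 0.377). Without replicate 3 Cacnb1 passed as well at 0.51 (adjusted p = 0.0234), so 2 genes were then higher. The exons of Cacnb4 overlap those of the opposite-strand gene A430018G15Rik over 1433 bases. Those of Cacnb2 overlap 3 genes, with the longest overlap, 618 bases, on Gm10849. The same limit as for Cacna1s applies to both. It also holds for Scn9a, with 180 bases shared with Gm13629, for Cacna2d2, with 82, and for Cacnb1, with 80, which makes 9 members in all.

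The order of the β subunits relative to Cacnb4 depends on length correction. The longest annotated transcript of Cacnb4 has 8225 bases, against 2734 in Cacnb3, 3396 in Cacnb1 and 5030 in Cacnb2. On values multiplied back by these lengths, which follow the number of fragments, Cacnb3 was at -0.34 and did not pass, while Cacnb1 at -0.99 and Cacnb2 at -0.56 passed as lower than Cacnb4.

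The α2δ subunits are extracellular anchors of the channel, and the first 2 bind gabapentin. Cacna2d1 was at 25.0, 21.8, 17.8 and 24.0 FPKM and Cacna2d2 at 15.3, 22.2, 16.4 and 18.5 FPKM. Their ranges overlapped, and Cacna2d1 was the higher in 3 of 4 libraries. Cacna2d3 was the steadiest of the members tested, at 13.3, 14.1, 13.7 and 14.1 FPKM, with an SD of 0.04 log2 units, at percentile 4.33 of the genes tested. Cacna2d4, known from photoreceptor terminals, reached 1.24 FPKM in replicate 3, while the other libraries held 0.333 to 0.4295 FPKM. In limma Cacna2d3 was lower than Cacna2d1 at -0.67 (SE 0.13, adjusted p = 0.00486) and Cacna2d4 at -5.13 (SE 0.39, adjusted p = 0.000141), each in 4 of 4 libraries, against 76.7% of all genes tested, and 0 were higher, also at an unadjusted p under 0.05, against 14.4% of all genes tested. Cacna2d2 did not pass at -0.29 (SE 0.16, adjusted p = 0.133). Without length correction it passed as lower, at -0.65 (adjusted p = 0.00894), so that 3 genes were then lower. Without replicate 3 Cacna2d4 was at -5.59 (limma, adjusted p = 8.93e-05).

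Partners of calcium channels at release sites ranged from just above the library median to very abundant. Of 11 presynaptic partners, 11 lay above the library median in limma, against 46.7% of all genes tested. The lowest were Rimbp2 at 0.25 (limma, adjusted p = 0.0460), Bsn at 0.48 and Unc13a at 0.74 log2 units. Differences of about this size depend on which genes define the median, as given above for Cacna1a and Cacna1b. Snap25, a protein of the vesicle fusion complex, was at 1133 ± 95.0 FPKM (SD, n = 4), and Syt1, the calcium sensor of fast release, at 153 ± 18.7 FPKM. Of 12 cytosolic regulators, 6 were higher than the median and 5 were lower, close to the 46.7% and 46.4% of all genes tested. Calm2 and Calm3, which encode calmodulin, a mediator of calcium feedback on the pore, were at 858 ± 42.9 FPKM and 504 ± 22.6 FPKM. Of the small GTPases that inhibit calcium channels, Gem at -1.80, Rem1 at -3.77 and Rem2 at -1.32 passed as lower, and Rrad, at -0.22, did not pass (limma, adjusted p = 0.562). Rrad was at 1.58 FPKM in replicate 3, against 5.29 to 5.93 FPKM in the other libraries. These 4 were chosen from their list after their values were seen.

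Between libraries the channel genes moved most in replicate 3. After centring each library on its median, 11 of the 27 members tested were highest in replicate 3 and 11 were lowest there, against 31.8% and 25.6% of all genes tested. The median size of the members' differences to the mean of the other libraries was 0.38 log2 units in replicate 3, against 0.17 over all genes, while in replicates 1, 2 and 4 it was 0.09, 0.16 and 0.09, against 0.16, 0.13 and 0.13 over all genes. The members did not shift as a block: 14 were higher and 13 lower in replicate 3, and their median difference was 0.05, against 0.02 over all genes. These are descriptions of 4 libraries and carry no test.

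The members that were higher in replicate 3 included Cacna2d4 by 1.51, Cacna1g by 0.84, Scn4b by 0.57, Cacnb4 by 0.51, Cacnb2 by 0.40, Scn1a by 0.40, Cacna1c by 0.39 and Scn8a by 0.33 log2 units, beside Cacna1e at 0.80, whose difference was raised by its low value in replicate 1. Those that were lower included Scn9a at -0.67, Scn11a at -0.54, Scn3a at -0.50, Scn3b at -0.44, Cacna1h at -0.39, Cacnb1 at -0.38 and Cacna2d1 at -0.33. Each family with several members thus held both a higher and a lower subunit.

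**Figure D4:**
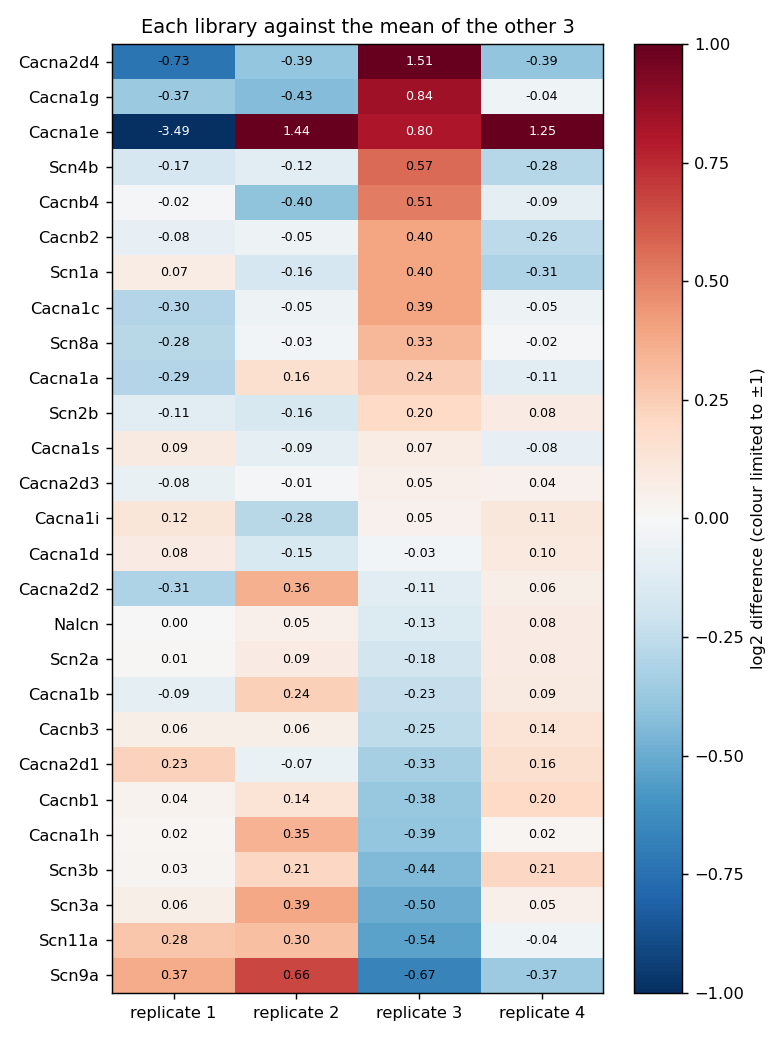
Log2 difference of each library to the mean of the other 3 for the 27 members tested, after centring each library on its median gene; red is higher, blue is lower, and rows are ordered by replicate 3. The colour scale is limited to ±1. Cacna2d4 at 1.51 and Scn9a at -0.67 mark the ends of the replicate 3 column, and Cacna1e stands at -3.49 in replicate 1.

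Ratios between subunits need no scaling between libraries. The pairs, and which gene of each was placed on top, were chosen after the values had been seen. Cacna1g over Cacna1h was 4.11 in replicate 3, against 1.75, 1.42 and 2.07 in replicates 1, 2 and 4. Scn4b over Scn3b was 1.83, against 0.973, 0.909 and 0.834. Cacnb4 over Cacnb3 was 0.630, against 0.405, 0.332 and 0.374, and Cacnb2 over Cacnb1 was 1.36, against 0.851, 0.820 and 0.711. Scn1a over Scn2a was 2.15, against 1.64, 1.39 and 1.29. In each of these 5 ratios replicate 3 was the highest library. Of 12 ratios computed, several of which share a gene and all chosen after the values had been seen, 11 were highest in replicate 3. A ratio turned over is lowest where it was highest, so the choice can set this count and it carries no test. The exception was Cacna2d1 over Cacna2d2, at 1.09 in replicate 3, against 1.63, 0.982 and 1.29. Beside this stand the thalamic relay markers, all 6 of which were higher in replicate 3, by a median of 2.92 log2 units, with Prkcd at 172 FPKM against 3.72 to 13.4 FPKM elsewhere. None of the 6 was at 0 in any library. The oligodendrocyte markers were also higher there by a median of 0.44, in 5 of 5 genes. They were higher in 5 of 5 genes in replicate 4 too, by a median of 0.16, and lower in all 5 in replicate 1, at a median of -0.49. Other markers were lower in replicate 3. Those of the medial hypothalamus and pituitary were at a median of -1.82 log2 units, with 0 of 5 genes higher. The lateral hypothalamic markers were at -1.45, with 1 of 4 higher, and the midbrain dopamine markers at -0.40, with 0 of 6 higher. Of the 5 neuronal markers, 2 were higher in replicate 3. Any part of this tissue content in the subunit ratios was not tested.

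**Figure D5:**
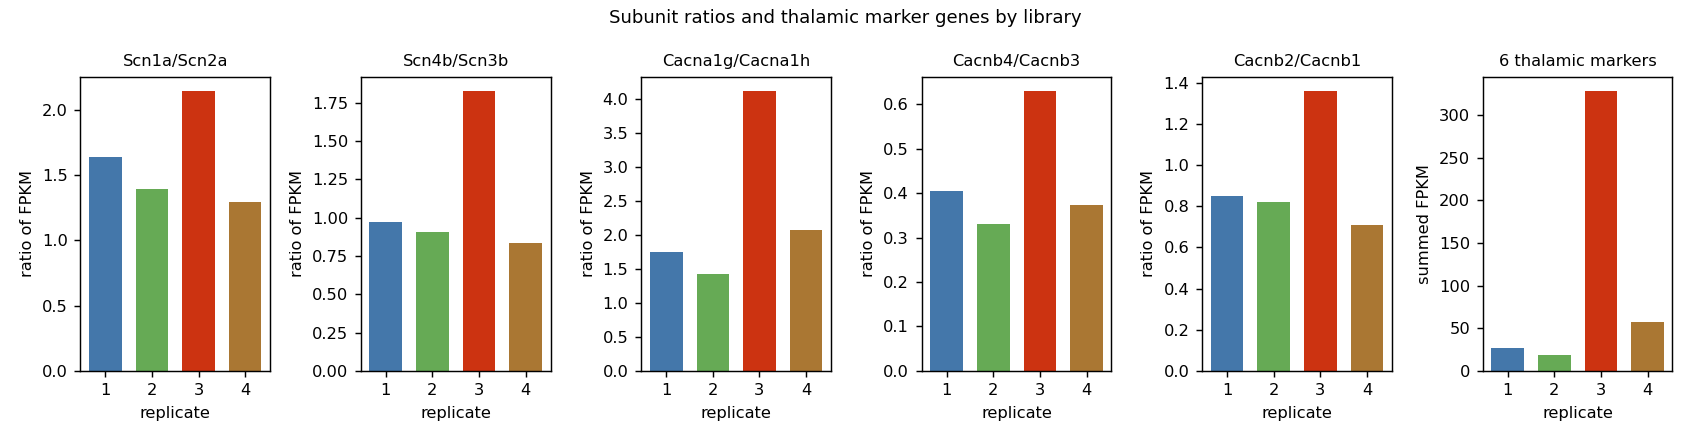
Ratio of FPKM between paired subunits in each library, with the summed FPKM of 6 thalamic relay marker genes in the last panel; each bar is a single library and has no error. Replicate 3 has the highest bar in all panels, such as 4.11 for Cacna1g over Cacna1h and 328 FPKM for the markers. The summed medial hypothalamic, lateral hypothalamic and dopamine neuron markers, not drawn here, were lowest in replicate 3. The pairs and the gene on top were chosen after the values had been seen.

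Replicate 2 held more medial hypothalamic and dopamine neuron transcripts. In it Scn9a was higher by 0.66, Scn3a by 0.39, Cacna2d2 by 0.36 and Cacna1h by 0.35 log2 units. Cacna1g was at -0.43 and Cacnb4 at -0.40. The mean of the other libraries includes replicate 3, in which the members moved most. Scn9a, Scn3a and Cacna1h were lowest in replicate 3 and Cacna1g and Cacnb4 highest there, while Cacna2d2 was lowest in replicate 1. Cacna1g was at 6.10 FPKM in replicate 2, against 6.18, 11.2 and 7.31 FPKM in replicates 1, 3 and 4. Any part of the tissue content of replicate 2 in these differences was not tested. Cacna1e, at 1.44, again reflects its low value in replicate 1. In replicate 4 no member tested other than Cacna1e differed by more than 0.5 from the mean of the other libraries, against 12.98% of all genes tested. Over all 4 libraries the median SD of the members tested was 0.21 log2 units, against 0.17 over all genes tested, and 18 of 27 members lay above that median.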

How the data were processed

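Per the labels' protocols, RNA was isolated with TRIzol and turned into 4 Illumina mRNA libraries. GRCm38 was the assembly, per the submitters' processing notes. For the aligner, counting tool, gene annotation and strand setting, these were not given in the sources used here. Values as deposited by the authors were read as FPKM because they hold fractions, sum to unequal totals (428612 to 442836 FPKM) and show low values that gather weakly at steps. Only 12.2% to 23.8% of these were whole steps to within 0.05. The step was picked to match these same values best, so shares this low say little about the unit. Reads were therefore not recovered and counting intervals were not computed.

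The column of the library titled as replicate 3 is headed with a letter and was assigned by its file's sample. Symbols came from GENCODE M21 and matched 22022 of 22036 Ensembl identifiers. Genes averaging at least 0.1 FPKM were tested, and values were taken as log2(FPKM + 0.1). limma 3.58.1 in R 4.3.3 fitted an intercept to the differences from the library median, or from a family's reference gene within libraries, two-sided, with Benjamini-Hochberg adjustment over all genes tested. In the reference fits the prior degrees of freedom were limited to the 1.60 of the level fit, since all differences share the deviation of the reference gene. The fits were tested on simulated data. All members are named, with the 3 most abundant genes of each partner list, some of which are not reported here. Members, lists and references were chosen with earlier results of these data known. Alternatives changed the pseudocount, filter, length correction, scaling and prior, and left out each library. No per-sample columns were left unused. Levels, shares and ratios were computed in Python 3.11.15 with pandas 2.3.3.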

Additional observations from a re-analysis of the deposited data

Results flagged for a closer look

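Of 60 sets of 4 values, which are the 30 members on both the FPKM and the log2(FPKM + 0.1) scale, 3 had a single library far from the rest by Dixon's criterion, about the 5% that chance gives. Cacna1e was lowest in replicate 1 at 0.312 FPKM on the log2 scale. Cacnb3 was lowest in replicate 3 at 26.4 FPKM on the log2 scale. Cacna2d4 was highest in replicate 3 at 1.24 FPKM on the FPKM scale. Each was set apart on that scale alone.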

How the results depend on the processing

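No paired comparison of groups was possible because the series has a single group. The differences fitted in limma were taken within libraries, and the differences between libraries carry no test. Over the alternatives run, 112 counts of members called stayed within 1.5 times the reported value and 10 did not. The 112 include counts that were 0 in every setting, as for members higher than Cacna1a, Cacna2d1 or Scn2b. They also include the 2 of 2 sodium β genes lower than Scn2b. For such counts the 1.5-fold bound says little. Leaving out a library gave 1 to 3 genes higher than Scn8a and 1 to 2 higher than Cacnb4, with the genes concerned named beside those comparisons. With no filter 5 sodium genes were lower than Scn8a, because more low genes entered, and with a filter of 1 FPKM 1 gene was lower than Cacna2d1, because Cacna2d4 left. Without length correction 5 members were lower than the library median, 1 was higher than Scn8a, and 0 were higher and 2 lower than Cacnb4. Of the differences of single members, 18 changed sign. Against the library median without length correction these were Scn3a (0.65), Cacna1c (0.62), Cacna1e (0.57), Cacna1h (0.29) and Cacna1i (0.87). A filter moves the median gene itself: at 1 FPKM Cacna1a (-0.27), Cacna1b (-0.42) and Cacna1g (-0.29) lay below it, and with no filter Scn3a (0.32), Cacna1h (0.18) and Cacna1i (0.51) lay above it. Without length correction Nalcn was at -0.20 against Scn8a, Cacna1b at 0.14 and Cacna1g at 0.0596 against Cacna1a, and Cacnb1 at -0.99, Cacnb2 at -0.56 and Cacnb3 at -0.34 against Cacnb4; leaving out a library moved Cacna1g between -0.171 and 0.1282, above 0 without replicate 2. Where no cause is named, it was not tested. Reads are not counted in these files, so depth limits Scn4a, Scn10a, Scn11a, Cacna1f and Cacna1s most.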
